A study of Mus musculus with 16 samples.

Results

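The BCL2 family decides whether mitochondria release the proteins that start cell death, and the 10 members followed here were taken by name from 25105 genes measured in dispersed mouse islet cells. They comprise 4 pro-survival members (Bcl2, Bcl2l1, which encodes BCL-XL, Bcl2l2, which encodes BCL-W, and Mcl1), 3 effectors (Bax, Bak1 and Bok) and 3 BH3-only members (Bcl2l11, which encodes BIM, Bbc3, which encodes PUMA, and Pmaip1, which encodes NOXA). Islets from Grp78 flox/flox mice were dispersed, transduced with an adenovirus and kept for 72 hr in 15 mM glucose. The 4 groups were Ad-LacZ (a control virus expressing β-galactosidase), Ad-Cre (Cre recombinase, which recombines the floxed Grp78 allele), Ad-LacZ with JNK inhibitor and Ad-Cre with JNK inhibitor, each with 4 libraries named by islet preparation (F1, M1, M2 and F2). The inhibitor was JNK-IN-8, which acts on all JNK isoforms and was added when the cultures began, and the groups without it received vehicle. All libraries, controls included, carried the floxed allele and an adenovirus, and the mice were adults of both sexes. The labels give a pair of animal numbers for each preparation, and all cell types of the islet could take up the virus, so that a change in β cells could not be told apart from one in other cells.

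In a healthy cell, pro-survival members hold the effectors in check at the outer mitochondrial membrane. BH3-only proteins bind the pro-survival members or act on the effectors, BAX and BAK then form pores, and cytochrome c leaves the mitochondrion and assembles the caspase-activating apoptosome. Under prolonged stress of the endoplasmic reticulum, β cells can die through this route, and the transcription factors CHOP and p53 are known to raise transcripts of several BH3-only genes and of Bax. JNK can act on family members by phosphorylation, which transcript levels do not show.

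The gene targeted by Cre was checked first. Hspa5, which encodes GRP78, ranged from 395 to 483 RPKM (reads scaled for gene length and library size) in the 4 Ad-LacZ libraries and from 1107 to 1598 RPKM in the 4 libraries labelled Ad-Cre, and with inhibitor from 348 to 461 and from 1202 to 1660 RPKM. The transcript level was thus higher in every library labelled Ad-Cre, which goes against the word knockdown in the labels. RPKM over a whole gene does not separate the floxed exons from the rest and shows neither recombination nor GRP78 protein. The groups are named by their labels throughout. Depth ran from 7.72 to 25.5 M reads per library. The shallowest, Ad-Cre + JNK inhibitor F2, also carries another prefix and lane in its library name than the other libraries. The beta cell markers Ins1, Ins2, Iapp, Mafa, Pdx1, Nkx6-1, Slc2a2 and Ucn3 were all detected in every group, with a summed level between 33139 and 84105 RPKM.

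Transcripts of the family covered a wide range of levels. In the Ad-LacZ libraries, Mcl1 (35.2 ± 5.42 RPKM), Bax (33.0 ± 7.40) and Bcl2l2 (30.7 ± 3.21) stood highest, with overlapping ranges, followed by Bak1 (14.9 ± 3.95) and Bcl2l1 (14.8 ± 1.81; SD, n = 4 throughout). Bbc3 (4.30 ± 1.48 RPKM), Bok (2.66 ± 0.99), Pmaip1 (2.14 ± 0.97) and Bcl2l11 (1.53 ± 0.30) formed a lower tier in which each range overlapped the next. Bcl2 was the lowest at 0.60 ± 0.17 RPKM, below the range of every other member. It made up a mean of 0.73% of the summed RPKM of the 4 pro-survival members. In the libraries labelled Ad-Cre, Bax had the highest mean of the family (49.4 ± 14.3 RPKM), though its range still overlapped that of Mcl1 (41.5 ± 6.10). With inhibitor added, Bax at 58.3 ± 13.7 RPKM no longer overlapped Mcl1 at 38.0 ± 5.79.

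The reads behind these levels bear on how firmly each can be read. Per library, Bax rested on 661 to 2288 reads, Mcl1 on 918 to 3775, Bbc3 on 73 to 457, Bok on 27 to 293 and Bcl2 on 49 to 416. Bcl2 exceeded 1 RPKM in 3 of the 16 libraries and did not pass the filter of more than 1 RPKM in 4 libraries of a comparison, so that the other 9 members were tested and Bcl2 was read from a fit with no filter. Bax shares 192 exon bases with Gm45808 and Bcl2l2 shares 594 with Gm20521, both on the same strand. Neither Gm45808 nor Gm20521 has deposited values, so how reads there were assigned is not known. On the opposite strand, Bak1 shares 437 exon bases with Ggnbp1 (mean 0.21 RPKM) and Bcl2 shares 558 with D630008O14Rik.

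**Figure D1:**
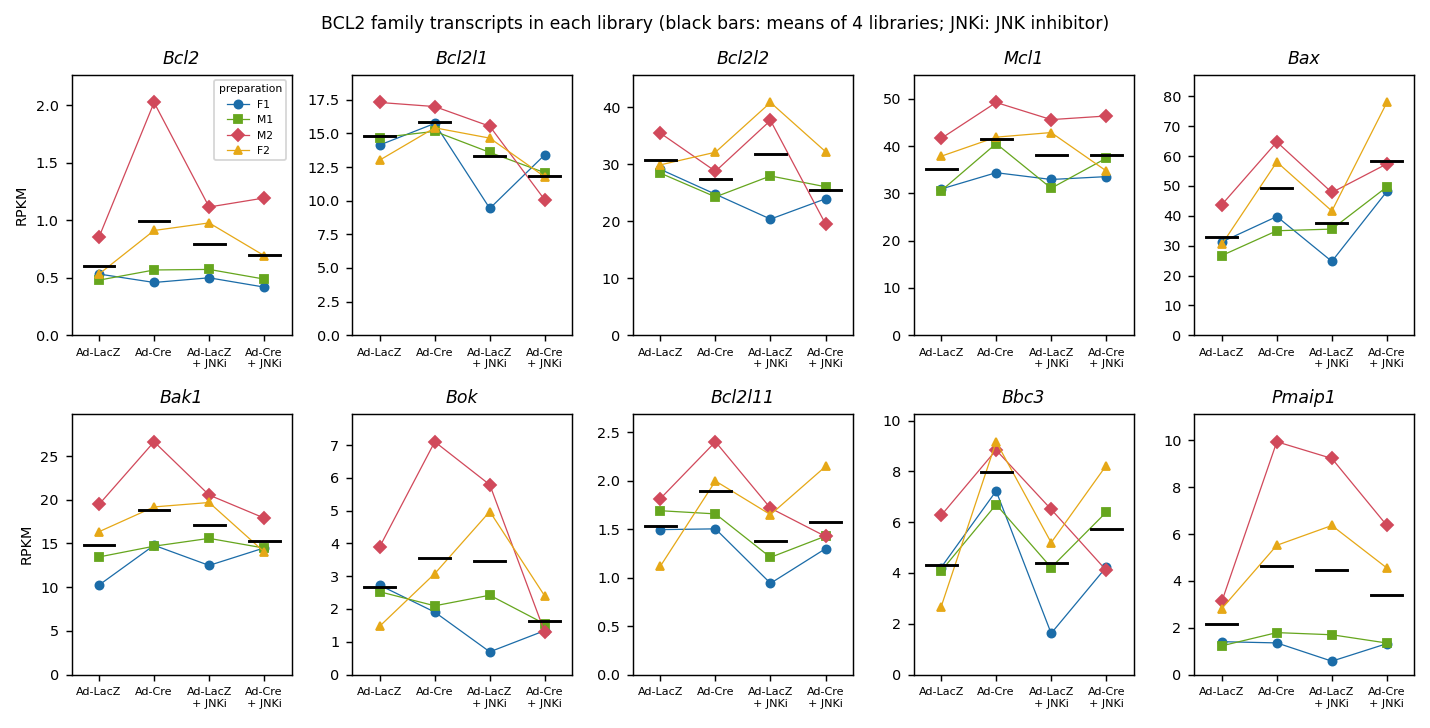
RPKM of each of the 10 members (vertical axes from 0) in the 4 groups (horizontal axes), with 1 coloured line for each islet preparation and a black bar for the mean of 4 libraries. Bbc3 in the libraries labelled Ad-Cre lies between 6.69 and 9.17 RPKM, above all Ad-LacZ libraries, while Pmaip1 and Bcl2 are separated mainly by preparation.

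The first comparison asked how the family stood 72 hr after Ad-Cre. Bbc3, the BH3-only gene that binds all pro-survival proteins, rose, and no pro-survival member passed the test in either direction. With islet preparation taken into account as a block, Bax, Bak1 and Pmaip1 were called higher as well, the last 2 near the threshold (limma's adjusted p = 0.0484 and 0.0402). Without the block 1 of the 9 members tested was called and with it 4, all higher, beside 16.5% and 34% of all 11590 genes tested. At an unadjusted p under 0.05 the members' counts were 2 and 5, beside 32.6% and 47.1% of all genes tested. With no filter on low genes the blocked fit called Bax alone. Called means a Benjamini-Hochberg adjusted p under 0.05 from limma over all genes tested, on the scale log2(RPKM + 1) after TMM scaling.

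Bbc3 measured 4.21, 4.08, 6.26 and 2.67 RPKM in Ad-LacZ (F1, M1, M2, F2) and 7.23, 6.69, 8.84 and 9.17 RPKM in the libraries labelled Ad-Cre. The groups did not overlap, which held for 27.7% of all genes tested, and Bbc3 was the single member of which it was true. Its log2 fold change was 0.79 ± 0.17 (SE; limma's adjusted p = 0.017 unblocked and 0.00696 blocked; exact permutation test, two-sided, p = 0.0286, the smallest that 4 libraries against 4 allow). Here and below, the permutation test shuffled the libraries of both groups freely and took no account of their pairing by preparation. The mean RPKM was 1.85 times that of Ad-LacZ, and the log2 difference within a preparation ran from 0.40 in M2 to 1.40 in F2. Without the block the call was lost when preparation F1, M1 or F2 was left out, with limma's adjusted p of 0.0681, 0.0696 and 0.0736.

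Bax, the effector that moves from cytosol to mitochondria, measured 31.2, 26.7, 43.7 and 30.4 RPKM in Ad-LacZ and 39.8, 35.0, 64.7 and 58.0 RPKM with Ad-Cre. The lowest libraries of the second group lay within the range of the first, yet each preparation was higher with Ad-Cre than with Ad-LacZ. The log2 fold change was 0.54 ± 0.16, with limma's adjusted p of 0.051 without the block and 0.00754 with it. Bax was called in the blocked fit also with each of the 4 preparations left out, with a log2 fold change between 0.45 and 0.59.

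Bak1, the effector that resides on mitochondria, had a log2 fold change of 0.31 (SE 0.17; limma's adjusted p = 0.241 unblocked and 0.0484 blocked, SE 0.10). Its blocked call did not survive leaving out any 1 preparation, with limma's adjusted p between 0.0677 and 0.155. Bok, an effector less well understood, was at 2.72, 2.53, 3.90 and 1.48 RPKM in Ad-LacZ and 1.90, 2.10, 7.10 and 3.08 RPKM with Ad-Cre. It was lower in F1 and M1 and higher in M2 and F2, and no call was made (log2 fold change 0.22 ± 0.28, limma's adjusted p = 0.632).

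Pmaip1, whose protein binds MCL1, measured 1.40, 1.23, 3.12 and 2.82 RPKM in Ad-LacZ and 1.35, 1.79, 9.94 and 5.52 RPKM with Ad-Cre. Preparations M2 and F2 carried most of the difference, with log2 differences of 1.35 and 0.70 against 0.02 in F1 and 0.36 in M1. The log2 fold change of 0.61 had an SE of 0.41 without the block (limma's adjusted p = 0.344) and 0.19 with it (0.0402), and without M2 it was 0.36 with a blocked adjusted p of 0.0947. On the deposited RPKM the blocked call was lost as well (0.62, limma's adjusted p = 0.0581). Bcl2l11, the third BH3-only member, had a log2 fold change of 0.19 ± 0.11 and was not called (limma's adjusted p = 0.292 unblocked and 0.198 blocked).

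No pro-survival member was called. Mcl1 was 0.23 ± 0.11 higher on the log2 scale and higher in all 4 preparations (limma's adjusted p = 0.166 unblocked and 0.106 blocked; exact permutation p = 0.0286). Bcl2l1 differed by 0.10 ± 0.10 and Bcl2l2 by -0.16 ± 0.10 (limma's adjusted p = 0.544 and 0.283). Bcl2, in the fit with no filter, differed by 0.25 ± 0.19 (limma's adjusted p = 0.487), with the difference again widest in M2, where it went from 0.85 to 2.03 RPKM. Summed over members, the pro-survival group was at 81.4 ± 9.81 RPKM in Ad-LacZ and 85.8 ± 9.73 RPKM with Ad-Cre, the effectors at 50.6 ± 11.3 and 71.8 ± 21.8 RPKM, and the BH3-only group at 7.98 ± 2.16 and 14.5 ± 5.41 RPKM.

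**Figure D2:**
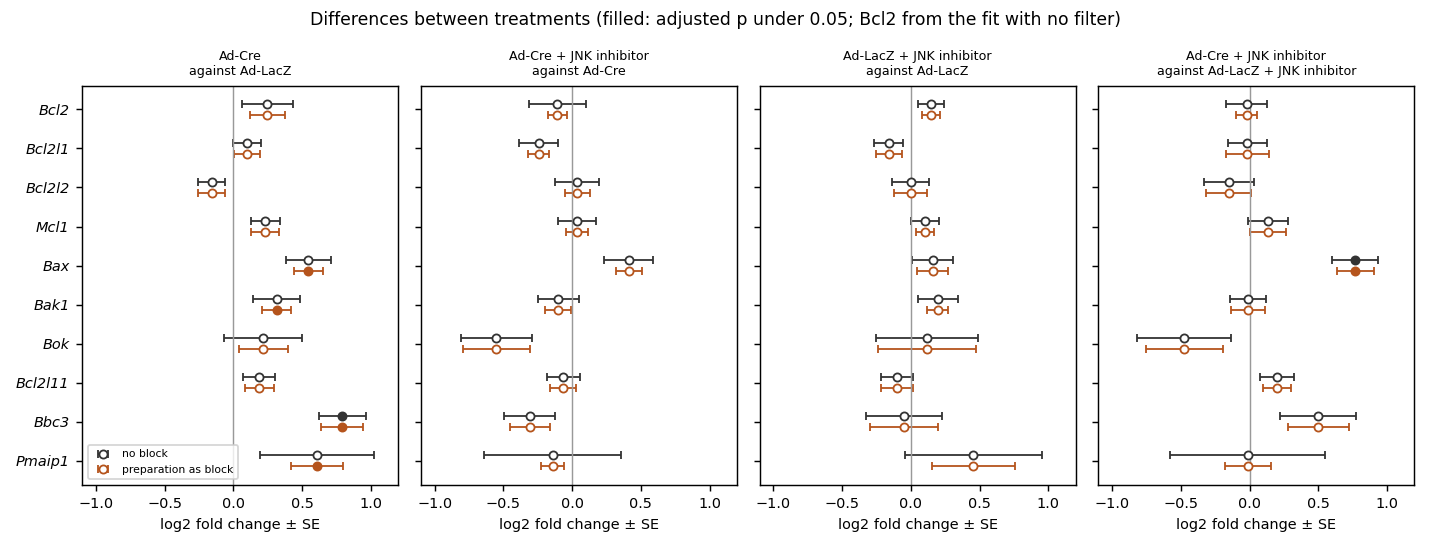
Log2 fold changes of the 10 members (rows) in 4 comparisons (panels), with bars of 1 SE and no block in grey or islet preparation as a block in orange. Filled circles mark an adjusted p under 0.05: Bbc3 in both fits and Bax, Bak1 and Pmaip1 in the blocked fit for Ad-Cre against Ad-LacZ, and Bax in both fits for the same contrast under inhibitor.

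The promoters of the members were examined because p53, ATF4 with C/EBP factors, and AP-1 are named regulators of the family. RefSeq start sites gave 14 windows for 9 of the members, from 250 bases before the start to 50 after it (GRCm38.p6), and no entry was found for Pmaip1. Both strands were searched for the p53 half-site, the AP-1 site TGANTCA, the CRE TGACGTCA, the C/EBP-ATF response element TGATGNAAN, the UPRE core TGACGTGG and the CCAAT box. A p53 half-site was found in the Bax window, 201 bases before the start, and in no window of another member. Only single half-sites inside these windows were searched for, not complete p53 elements or sites elsewhere in a gene. The half-site occurred in 8.36% of all 32851 promoter windows of the same length. A CCAAT box was found in 1 window of Bbc3 and 2 of Bcl2l11, and in 37.4% of all windows. The AP-1 site, the CRE, the C/EBP-ATF element and the UPRE core, held by 7.81%, 1.79%, 3.95% and 0.676% of all windows, had no match in the members' windows. The 250 bases before the start are shown for Bax (chr7:45466899-45467148, minus strand) and for the Bbc3 window with a match (chr7:16310181-16310430, plus strand), 5′ to 3′, since these 2 genes were called in the blocked fit with any 1 preparation left out. Capitals mark the p53 half-site in Bax and the CCAAT box, read on the opposite strand, in Bbc3.
Bax: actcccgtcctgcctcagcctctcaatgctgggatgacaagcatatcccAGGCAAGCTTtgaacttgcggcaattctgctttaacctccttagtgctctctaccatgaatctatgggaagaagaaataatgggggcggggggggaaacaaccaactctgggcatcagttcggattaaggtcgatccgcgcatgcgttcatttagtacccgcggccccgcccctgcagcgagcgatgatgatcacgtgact
Bbc3: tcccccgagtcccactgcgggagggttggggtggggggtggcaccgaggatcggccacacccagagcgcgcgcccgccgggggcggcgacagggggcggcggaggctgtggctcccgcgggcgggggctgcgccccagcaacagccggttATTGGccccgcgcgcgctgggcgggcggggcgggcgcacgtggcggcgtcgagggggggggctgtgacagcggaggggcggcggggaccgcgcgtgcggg
These bases were 54% G or C in Bax and 81.6% in Bbc3. Both genes lie on chromosome 7 (GRCm38), Bax at 45461697 to 45466898 on the minus strand and Bbc3 at 16308393 to 16318205 on the plus strand.

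Genes around the family were taken from lists written from general knowledge, with earlier results of these data known. Over all 11590 genes tested for Ad-Cre against Ad-LacZ, 16.5% were called without the block and 34% with it. Of 11 upstream regulators, 5 were called higher after Ad-Cre and none lower without the block, and 6 higher and 1 lower with it. They were Ddit3, which encodes CHOP (log2 fold change 2.52 ± 0.27), Trib3 (1.34 ± 0.28), Atf3 (1.31 ± 0.24), Atf4 (0.66 ± 0.18) and Trp53, which encodes p53 (0.47 ± 0.11; limma's adjusted p between 0.00137 and 0.0378). The block added Tnfrsf10b, a death receptor gene (0.41), and Mapk8, which encodes JNK1 and was lower (-0.30). The list's median was 0.41, beside -0.0040 over all genes tested. Because earlier results were known when the list was written, this median is a description only.

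Downstream of the family, 1 of 13 apoptosome, caspase and inhibitor genes tested was called without the block, Casp8, at 0.48 ± 0.12 (limma's adjusted p = 0.0265). With the block Cycs, which encodes cytochrome c (0.43), and Apaf1, the apoptosome scaffold (0.32), were called too, and the list's median was 0.05. These counts and those below stand beside 16.5% of all genes tested called without the block and 34% with it. Other BCL2 family genes gave 0 calls of 8 tested without the block and 1 with it, Bad, a BH3-only gene (0.40, limma's blocked adjusted p = 0.043), with a median of 0.07. None of the 6 genes of the death receptor list (Fas, Tnfrsf1a, Fadd, Tradd, Cflar and Ripk1) was called by limma in either fit, and Tnfrsf10b, called in the blocked fit, stands in the list of upstream regulators instead. Among 9 partners and turnover genes, 2 were called lower, Huwe1 (-0.57 ± 0.12) and Fbxw7 (-0.55 ± 0.15), which encode ubiquitin ligase components that direct MCL1 to degradation. The block added Usp9x, an MCL1 deubiquitinase (-0.50), as lower and Vdac1 (0.33) and Tmbim6 (0.53) as higher.

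The second comparison asked what JNK-IN-8 changed in the presence of Ad-Cre, with the same libraries labelled Ad-Cre as the reference. No member was called by limma in either fit, and of all 11503 genes tested 0.0174% and 6.76% were, without and with the block. At an unadjusted p under 0.05 there were 1 and 2 members, beside 8.03% and 26.5% of genes. Bax measured 48.2, 49.7, 57.4 and 78.0 RPKM against 39.8, 35.0, 64.7 and 58.0 RPKM without, and on the TMM-scaled scale it was higher in all 4 preparations, by 0.41 ± 0.18 (limma's adjusted p = 0.621 unblocked and 0.0585 blocked; exact permutation p = 0.0286). On the deposited RPKM the median gene was at -0.14 in this comparison, and there Bax differed by 0.25 and was lower in M2.

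Bcl2l1, the pro-survival gene known to protect β cells from stress, measured 15.7, 15.2, 17.0 and 15.4 RPKM with Ad-Cre and 13.4, 12.1, 10.1 and 11.8 RPKM with inhibitor added. These groups did not overlap, as for 11.5% of all genes tested. After TMM scaling the log2 fold change was -0.24 ± 0.14 and negative in each preparation (limma's adjusted p = 0.752 unblocked and 0.112 blocked; exact permutation p = 0.114). On the deposited RPKM it was -0.40 (limma's adjusted p = 0.247 unblocked and 0.0593 blocked), where the median gene was at -0.14. In the blocked fit without preparation M2, both Bcl2l1 (-0.19, limma's adjusted p = 0.0428) and Bax (0.51, 0.00376) were called. Without F1, M1 or F2 neither was, with limma's adjusted p of 0.234, 0.334 and 0.295 for Bcl2l1 and 0.214, 0.259 and 0.221 for Bax. Ad-Cre + JNK inhibitor M2 was also the library in which Bok lay furthest below its Ad-Cre pair, at 1.29 against 7.10 RPKM, and over the 4 preparations Bok was at -0.55 ± 0.26 (limma's adjusted p = 0.646 unblocked and 0.214 blocked).

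Bbc3 was at 4.23, 6.39, 4.11 and 8.23 RPKM with Ad-Cre and inhibitor. Preparations F1 and M2 were lower than with Ad-Cre alone, by -0.57 and -0.68 on the log2 scale, whereas M1 and F2 differed by 0.04 and -0.02. The log2 fold change was -0.31 ± 0.19 (limma's adjusted p = 0.761 unblocked and 0.232 blocked). Mcl1, Bcl2l2, Bak1, Bcl2l11 and Pmaip1 differed by between -0.14 and 0.04. In the lists, Jun, which encodes the main JNK substrate among transcription factors, was lower at -0.95 (limma's adjusted p = 0.207 unblocked and 0.0096 blocked). The block also called Bmf, a BH3-only gene, lower (-0.62) and Cycs (0.57) and Ddit3 (0.48) higher.

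In Ad-LacZ cells the inhibitor gave no member call by limma in either fit, beside 0.197% and 0.335% of 11657 genes. At an unadjusted p under 0.05 there were 0 and 1 member, beside 6.07% and 12.9% of genes. No member had groups that did not overlap, which was true of 4.84% of genes. Bak1 had a log2 fold change of 0.20, with a positive difference in all 4 preparations, and did not pass the test. Jun was the single gene of the lists that was called, in the blocked fit, at -1.08 (limma's blocked adjusted p = 0.0372). Ad-LacZ + JNK inhibitor F1 stood low, holding the lowest value of the 16 libraries for 6 of the 10 members, among them Bbc3 at 1.62 RPKM and Bax at 24.7 RPKM. Without preparation F1 the change of Bbc3 with inhibitor in Ad-LacZ cells went from -0.05 to 0.25.

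The last comparison set Ad-Cre against Ad-LacZ with inhibitor in both. Bax was called, at 24.7, 35.6, 47.8 and 41.6 RPKM with Ad-LacZ and 48.2, 49.7, 57.4 and 78.0 RPKM with Ad-Cre, groups that did not overlap. Its log2 fold change was 0.77 ± 0.17 (limma's adjusted p = 0.0128 unblocked and 0.0117 blocked; exact permutation p = 0.0286). That 1 of 9 members was called stands beside 20.6% of 11598 genes without the block and 24.8% with it, and 29.7% of genes did not overlap. The call was absent on the deposited RPKM (0.64, limma's adjusted p = 0.0654) and after quantile normalization (0.55, limma's adjusted p = 0.0971), each unblocked. It was also lost without preparation M1 or F2, with limma's adjusted p of 0.0896 and 0.105.

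Bbc3 differed by 0.50 ± 0.28 under inhibitor and was not called (limma's adjusted p = 0.228 unblocked and 0.146 blocked). It was higher in F1, M1 and F2 by 1.01, 0.62 and 0.70 and lower in M2 by -0.34. Without M2 the blocked fit called Bbc3 (0.77, limma's adjusted p = 0.00658). Without F1, M1 or F2 it did not, with limma's adjusted p of 0.313, 0.367 and 0.374. Of the 11 upstream regulators, limma called 5 higher without the block and 4 with it, Trp53 (0.47) being the one that differed. Of all genes tested, 20.6% and 24.8% were called in either direction. Cycs (0.79) and, among 9 partners and turnover genes, Vdac1 (0.42) and Tmbim6 (0.68) were called higher and Huwe1 (-0.72), Fbxw7 (-0.59) and Usp9x (-0.68) lower in both fits. Whether the virus effect differed with inhibitor was tested over all 16 libraries. limma called 0% of 12274 genes without and with the block, although 384 and 1414 genes (3.13% and 11.5%) had an unadjusted p under 0.05, and 0 members did in either fit. The difference between the virus effects was 0.23 for Bax, -0.32 for Bak1, -0.61 for Pmaip1 and -0.69 for Bok. For each, limma's adjusted p was 0.999 without the block, and with it 0.724, 0.482, 0.480 and 0.608.

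**Figure D3:**
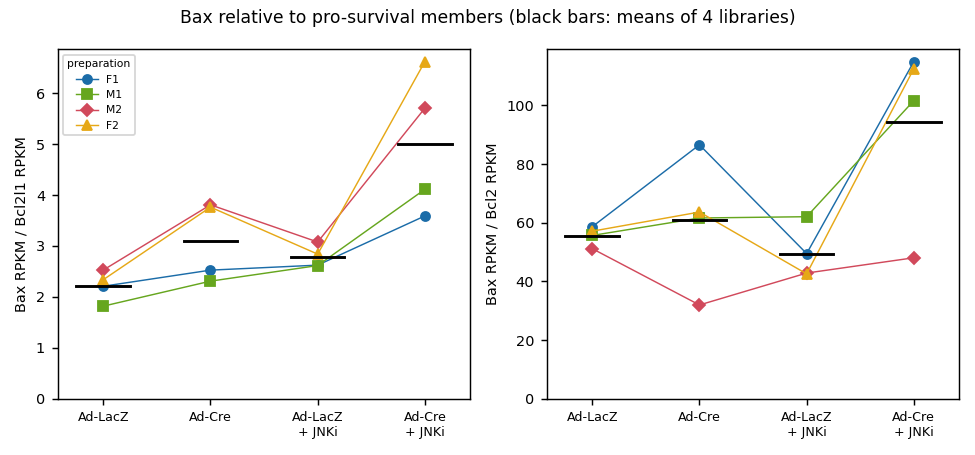
Ratio of Bax RPKM to Bcl2l1 RPKM (left) and to Bcl2 RPKM (right) in each library, by group, with lines joining the libraries of a preparation and black bars for means of 4. The Bax to Bcl2l1 ratio runs from 1.82 to 2.53 in Ad-LacZ and from 3.59 to 6.62 in Ad-Cre with inhibitor.

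Ratios between members need no scaling between libraries and are given as a description, with the members chosen when earlier results of these data were known. The ratio of Bax to Bcl2l1 was 1.82 to 2.53 in Ad-LacZ, 2.31 to 3.81 in the libraries labelled Ad-Cre, 2.62 to 3.08 in Ad-LacZ with inhibitor and 3.59 to 6.62 in Ad-Cre with inhibitor. The last group lay above both Ad-LacZ groups in every library and overlapped the Ad-Cre group. Each preparation had a higher ratio with the inhibitor than without, both with Ad-Cre and with Ad-LacZ, and the 2 Ad-LacZ groups did not overlap. Bax to Mcl1 was 0.80 to 1.05, 0.86 to 1.38, 0.75 to 1.14 and 1.24 to 2.24 in the order above. With inhibitor that ratio was lower in M2 with Ad-Cre (1.24 against 1.31) and in F1 and M2 with Ad-LacZ, and higher in the other preparations. Bax to Bcl2 gave a different picture, at 51.2 to 58.6, 32.0 to 86.6, 42.6 to 62.1 and 48.1 to 115 in the same order. Preparation M2, where Bcl2 was highest, had the lowest Bax to Bcl2 ratio in each group without inhibitor and in Ad-Cre with inhibitor.

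**Figure D4:**
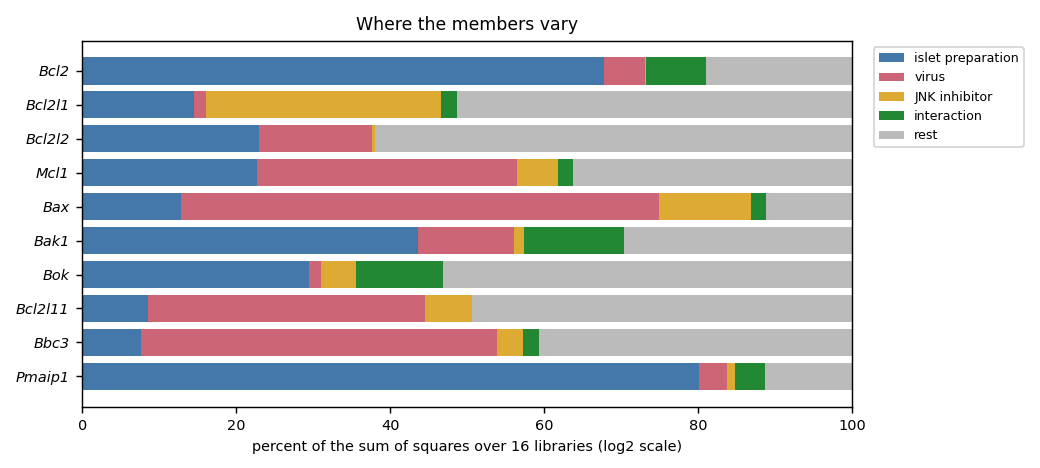
Share of each member's sum of squares over 16 libraries (horizontal axis, percent, log2 scale) that falls to islet preparation, virus, JNK inhibitor, their interaction and the rest. Preparation takes 80.2% for Pmaip1 and 67.7% for Bcl2, and virus takes 62.1% for Bax.

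Members differed in what they varied with. Virus accounted for 62.1% of the sum of squares of Bax, 46.1% of Bbc3, 36.0% of Bcl2l11 and 33.8% of Mcl1 on the log2 scale, against a median of 22.1% over genes above the filter. Preparation accounted for 80.2% in Pmaip1, 67.7% in Bcl2 and 43.6% in Bak1, against a median of 26.0%. The inhibitor's share was highest in Bcl2l1 at 30.5%, against a median of 3.04%. Pmaip1 was between 3.12 and 9.94 RPKM in the 4 M2 libraries and between 2.82 and 6.37 RPKM in F2, but between 0.57 and 1.79 RPKM in F1 and M1. Bcl2 ranged from 0.85 to 2.03 RPKM in M2 and from 0.42 to 0.57 RPKM in F1 and M1. Ad-Cre M2 held the highest value of the 16 libraries for 6 of the 10 members.

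Markers of other cells moved with preparation and treatment. The 4 fibroblast and stellate cell markers Col1a1, Col3a1, Dcn and Pdgfrb, none at 0 throughout a group, summed to 91.8 to 576 RPKM in M2 and 47.5 to 261 RPKM in F2, but 18.7 to 38.0 RPKM in F1 and 21.6 to 86.4 RPKM in M1. By group the sum was 20.7 to 91.8 RPKM in Ad-LacZ, 18.7 to 576 RPKM with Ad-Cre, 38.0 to 433 RPKM in Ad-LacZ with inhibitor and 21.6 to 127 RPKM in Ad-Cre with inhibitor. The endothelial sum was 28.1 to 54.7 RPKM in M2 and 13.7 to 26.4 RPKM in the other preparations, and the beta cell sum was 33139 to 51227 RPKM in M2 and 45004 to 84105 RPKM in F1, ranges that overlap. Most of that sum was Ins1 and Ins2. The beta cell markers Mafa, Pdx1, Nkx6-1, Slc2a2 and Ucn3 were each at a lower level with Ad-Cre than with Ad-LacZ in every preparation, without and with inhibitor. The rest of the list was mixed. Iapp was higher with Ad-Cre in F2 without inhibitor (2896 against 2214 RPKM) and in F1 and M1 with it. Ins2 was higher with Ad-Cre in F1 without inhibitor and in every preparation with it (in F1, 38561 against 24501 RPKM). Ins1 was lower in every preparation except F1 with inhibitor. Mafa was at 508, 444, 344 and 285 RPKM in Ad-LacZ (F1, M1, M2, F2) and at 222, 225, 52.7 and 81.8 RPKM with Ad-Cre, and Ucn3, which encodes urocortin 3, at 231, 330, 173 and 348 against 108, 129, 21.6 and 42.1 RPKM. The 2 delta cell markers summed to 2468, 1984, 2413 and 1093 RPKM with Ad-Cre and to 3741, 2737, 6673 and 2388 RPKM with inhibitor added, higher in every preparation. The 4 alpha cell markers, of which Gcg made up nearly all, summed to 20742, 12365, 13150 and 11513 RPKM with Ad-Cre. With inhibitor added they summed to 21476, 12109, 26529 and 16533 RPKM, higher in every preparation except M1. The PP cell marker was at 1728 to 2754 RPKM with Ad-Cre and 2065 to 2892 RPKM with inhibitor added. The 7 macrophage markers summed to 51.6 to 57.4 RPKM in Ad-LacZ, 57.2 to 111 with Ad-Cre, 83.4 to 116 in Ad-LacZ with inhibitor and 90.2 to 112 in Ad-Cre with inhibitor. The duct sum was 136 to 274, 104 to 331, 376 to 909 and 217 to 305 RPKM in the same order. Most of the duct sum was Spp1, at 93.0 to 221 RPKM in Ad-LacZ and 332 to 813 RPKM in Ad-LacZ with inhibitor. Krt7 came next. Sox9 was at most 1.56 RPKM, and Krt19 was low except at 33.0 RPKM in Ad-LacZ + JNK inhibitor F2. The part of these markers in the levels of Pmaip1, Bcl2, Bok, Bak1, Bbc3, Bax and Bcl2l1 was not tested, and in bulk RNA fewer cells of a type cannot be told apart from less RNA per cell.

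**Figure D5:**
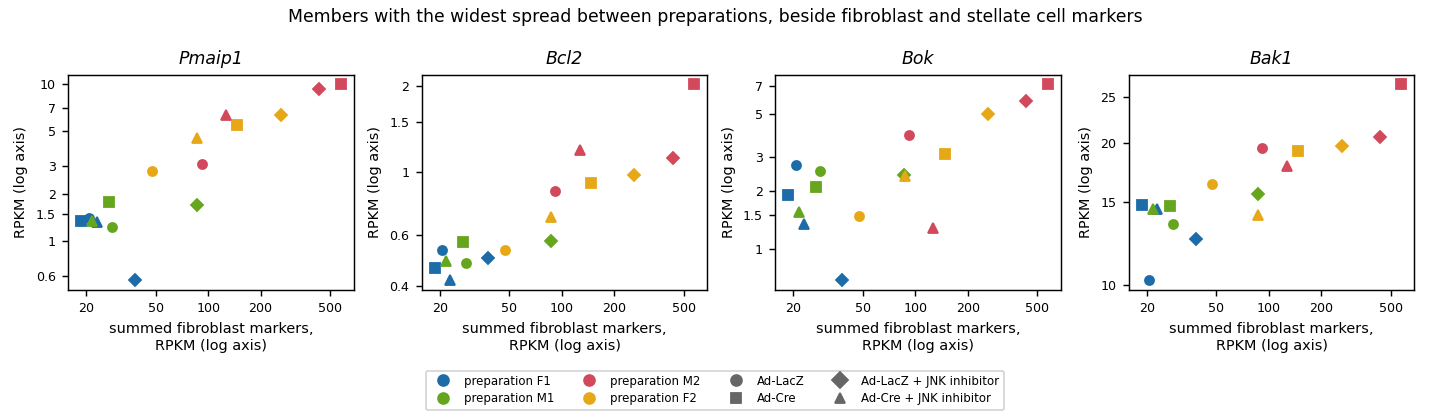
RPKM of Pmaip1, Bcl2, Bok and Bak1 (vertical log axes) against the summed RPKM of 4 fibroblast and stellate cell markers (horizontal log axes) in 16 libraries, coloured by preparation and shaped by group. M2 and F2 libraries lie to the right and mostly high, and Ad-Cre + JNK inhibitor M2 lies low for Bok at 1.29 RPKM.

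As a description over the 16 libraries, which share preparations and treatments, the genes whose scaled log2 values followed each member most closely were also listed. For Bax they were Zfas1, Trmt1 and Zfp385a (Pearson r between 0.945 and 0.970), and for Bbc3 Rab40c, Fam98c and Eml3 (0.926 to 0.963). Pmaip1 ran with Kank2, Ddr2, which encodes a collagen receptor, and Plekho2 (0.959 to 0.970). For Bcl2 they were Prcp, Rbms3 and Iqsec1 (0.965 to 0.968), for Bok Dip2a, Azin2 and Sun2 (0.940 to 0.961), and for Mcl1 Arf6, Pdgfa and Arl8a, at a lower 0.796 to 0.811. Within the family the closest pairs were Bcl2l11 with Bbc3 (0.864) and Bcl2 with Pmaip1 (0.854), and Bax with Bbc3 reached 0.687.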

How the data were processed

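RNA (poly(A), paired-end) was measured in 16 libraries, 4 groups of 4. The authors aligned reads to the mouse genome (GRCm38 per the submitters' processing notes) and deposited RPKM values; the aligner's version and gene lengths are not given in the sources used here. Depth was taken from the most frequent low value of RPKM multiplied by GENCODE M21 exon length, read as a single read, over all genes with a length. At that depth 9 of 10 members came to whole reads (within 0.05). Another 3 columns of values matched no sample label and were not used. Values were TMM-scaled (own code, no weights), log2(RPKM + 1) transformed and filtered at more than 1 RPKM in 4 libraries. They were fitted with limma 3.58.1 in R 4.3.3. Fold changes on this scale understate those of low genes. The unblocked fits of Ad-Cre against Ad-LacZ and of the inhibitor with Ad-Cre were tested on simulated data without differences between preparations. The blocked and interaction fits were not tested in that way. Replicate numbers pair the samples: parallel cultures came from 1 preparation, and residuals of same-numbered libraries correlated at 0.131 to 0.826 in every comparison, so blocked values are given where a call changes. The 4 comparisons share control libraries. Members are those given by name; members, lists and tests were chosen with earlier results of these data known. Alternatives changed the pseudocount, filter, scaling, block, trend, samples fitted and libraries left out. Unblocked p values measure the spread between the libraries of a group, and blocked ones how far the treatment difference varied between these preparations.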

Additional observations from a re-analysis of the deposited data

Results flagged for a closer look

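Within the 40 groups of 4 libraries formed by the 10 members, 3 held a library far from its neighbours by Dixon's criterion, and chance marks about 1 in 20 groups. Bcl2 was at 0.855 RPKM in Ad-LacZ M2, where the other Ad-LacZ libraries lay between 0.480 and 0.533 RPKM. Bak1 was at 17.9 RPKM in Ad-Cre + JNK inhibitor M2, against 14.0 to 14.5 RPKM in the other libraries of that group. Bcl2l11 was at 2.14 RPKM in Ad-Cre + JNK inhibitor F2, the shallowest library and the one whose library name carries another prefix and lane, against 1.30 to 1.43 RPKM in the rest of its group.

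Bcl2 moved in opposite directions with the inhibitor, lower in each of the 4 preparations with Ad-Cre and higher in each of the 4 with Ad-LacZ. The difference between these changes was -0.26 on the log2 scale, and limma's test of the difference itself, with no filter, gave an adjusted p of 1.00 without the block and 0.538 with it.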

How the results depend on the processing

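Among all alternatives the member count for Ad-Cre against Ad-LacZ was 2 with all 16 libraries in one fit and 2 without a variance trend, Bax joining Bbc3, and 4 with the replicate block. Leaving out 1 preparation gave 0 to 1, with 0 without F1, M1 or F2. In the blocked fit, combinations chosen after the data were seen gave 1 with no filter (Bax), 3 on RPKM as deposited, where Pmaip1 was not called, and 2 to 3 with 1 preparation left out, Bax and Bbc3 in each and Pmaip1 also without F1. For the inhibitor in libraries labelled Ad-Cre the blocked count was 0 to 2 over preparations left out, with 2 without M2. For Ad-Cre against Ad-LacZ under inhibitor the count was 0 on RPKM as deposited and 0 with quantile normalization, and 0 to 1 with 1 preparation left out; in the blocked fit it was 0 to 2, with Bok as well as Bax without F1, Bbc3 as well as Bax without M2, and 0 without M1, without F2 or without the single Ad-Cre + JNK inhibitor F2 library. The replicate block changed no other member's call. The cause of these changes was not tested, beyond the fewer samples of each left-out fit.

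No called value changed sign. Values near 0 did, none of them called. For the inhibitor in libraries labelled Ad-Cre, RPKM as deposited and quantile normalization gave -0.12 and -0.049 for Bcl2l2 and -0.12 and -0.10 for Mcl1, and leaving out libraries gave -0.047 to 0.13 for Bcl2l2, -0.025 to 0.11 for Mcl1 and -0.14 to 0.0087 for Bcl2l11. Deposited RPKM moved the median gene from -0.01 to -0.14 there, and from -0.03 to -0.14 for Ad-Cre against Ad-LacZ under inhibitor. For the inhibitor in Ad-LacZ cells, Bcl2l2 was at 0.0013 on RPKM as deposited and 0.014 with all 16 libraries, and leaving out libraries gave -0.097 to 0.12 for Bcl2l2, -0.27 to 0.25 for Bbc3 and -0.22 to 0.53 for Bok. For Ad-Cre against Ad-LacZ under inhibitor, Pmaip1 was at 0.074 with a pseudocount of 0.1 RPKM, and quantile normalization gave 0.069 for Pmaip1 and -0.054 for Mcl1. Leaving out libraries there gave -0.22 to 0.071 for Pmaip1, -0.17 to 0.092 for Bcl2l1, -0.27 to 0.020 for Bcl2l2 and -0.076 to 0.090 for Bak1.

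Depth limits Bcl2, Bok, Bbc3 and Pmaip1 most, with as few as 27 reads in a library, and these counts cover counting error only.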
